A study of Mus musculus with 4 samples.

Results

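The acute-phase protein genes described here are Saa1, Saa2, Saa3, Orm1, Orm2, Lcn2, Hp, Hpx, Hamp and Socs3, 10 genes measured in mouse liver after intranasal administration of galanin-like peptide (GALP), a neuropeptide that acts on feeding and energy balance. Every non-control probe that carries the name of one of these genes on the array was taken, which gave 10 of 26582 gene names and 12 of 41174 probes, with 2 probes each for Saa1 and Socs3. All 12 gave a signal well above background in both channels of all 4 arrays, so no member was lost to a filter.

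Male C57BL/6J mice, 8 weeks old at purchase, were made obese by 14 weeks of a high-fat diet and weighed 40 g or more. They received GALP (1 nmol, porcine sequence, in saline with 5% α-cyclodextrin) or saline by the nose, 2 μL once a day for 11 days. The high-fat diet was continued through this treatment, which followed a week of once-daily saline by the nose. Liver RNA was pooled before labelling into 4 GALP mice of greater weight loss (the greater-loss pool), 4 GALP mice of less weight loss (the less-loss pool) and 8 saline control mice (the control pool). A pair of arrays with exchanged dyes set either GALP pool beside the control, 4 arrays in all. All values are log2 ratios of GALP over control, given per array with the dye that carried GALP. The 2 arrays of a pool share their RNA and were averaged, so the pools are the replicates (n = 2), and the same control pool stands in both ratios. Single mice were not analysed here, weight loss was itself observed during treatment, and pooled liver cannot tell fewer cells of a type from less RNA per cell.

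The acute-phase response is a rapid change in the proteins that the liver secretes after infection, injury or other inflammatory stimuli. Interleukin 6 acts through gp130 and STAT3, and interleukin 1 and tumour necrosis factor act through NF-κB, with C/EBP factors and glucocorticoids adding to both. Serum amyloid A, orosomucoid, haptoglobin, haemopexin, lipocalin 2 and the iron hormone hepcidin are its positive reactants in the mouse, and SOCS3 is the feedback inhibitor of STAT3 signalling.

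Lcn2, Saa3 and Hamp had the highest ratios among the 10 genes, with mean levels over both pools 1.55-fold, 1.42-fold and 1.38-fold those of the control. Saa1 and Saa2 lay near the control in the greater-loss pool and were at 1.26-fold and 1.29-fold of it in the less-loss pool. Orm1 was 0.827-fold and Hpx 1.20-fold of the control in the greater-loss pool, beside 0.976-fold and 1.05-fold in the less-loss pool. Hp was 1.14-fold and 1.13-fold of it, in the same order of pools, and Socs3 had no direction shared by all 4 arrays. None of the 12 probes met the rule of the methods, read strictly: both pools past a fold of 1.5 upward or 0.75 downward, and every array under a software p-value of 0.01 with a common direction. By that rule 0.0585% of all 41037 probes tested were higher and 0.132% were lower. No member passed limma's test of the 2 pool ratios against 0 either, with Benjamini-Hochberg adjusted p-values from 0.374 to 0.876 and 2 of the 12 probes at an unadjusted p under 0.05. The same limma fit called 0 of 41037 probes, against 4759 at an unadjusted p under 0.05.

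**Figure D1:**
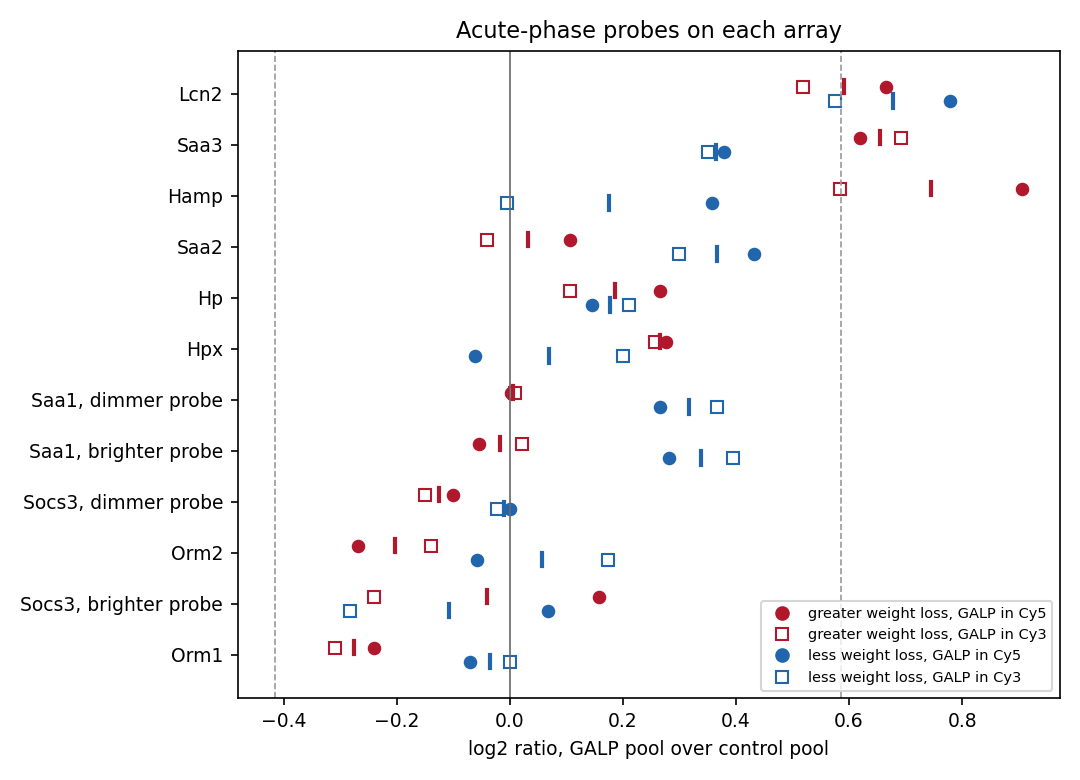
Log2 ratio of GALP over control (x axis) of the 12 acute-phase probes (y axis) on each of the 4 arrays. Circles are arrays with GALP in Cy5, open squares arrays with GALP in Cy3, red the greater-loss and blue the less-loss pool, short bars the mean of the 2 arrays of a pool, and dashed lines the folds of 1.5 and 0.75. Lcn2 and Saa3 lie right of 0 on all 4 arrays, while both Saa1 probes and Saa2 lie higher in blue than in red.

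Lcn2 encodes lipocalin 2, a secreted protein that binds bacterial siderophores and is released by hepatocytes and neutrophils. Its log2 ratios were 0.66 with GALP in Cy5 and 0.52 with GALP in Cy3 in the greater-loss pool, and 0.78 and 0.58 in the less-loss pool. All 4 arrays were thus above the control and both pools exceeded the fold of 1.5, at 1.51-fold and 1.60-fold. The p-value of the software was under 0.01 on 3 of the 4 arrays, and the array of the greater-loss pool that carried GALP in Cy3 missed it at 0.0137. Where the p-value was asked on at least 1 array of each pool, Lcn2 was called higher, the only member probe of the 12, and 0.129% of all probes were then called higher and 0.407% lower. The mean log2 ratio was 0.63 ± 0.06 (SD, n = 2), and its limma 95% confidence interval ran from 0.41 to 0.86 with an adjusted p of 0.374. That interval rests on pool means closer to each other than the arrays of either pool, whose gaps were 0.15 and 0.20. It also leaves out the spread of the control. Of the 14445 probes well above background in both channels of all 4 arrays, 0.478% had a mean ratio as high. The processed signals ran from 551 to 848 units for GALP and from 321 to 569 for the control. After normexp background correction with loess the mean log2 ratio was 0.32, below the limma interval above.

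Saa3 is the serum amyloid A made by macrophages and fat cells as well as by liver. Its log2 ratios were 0.62 and 0.69 in the greater-loss pool (GALP in Cy5, then Cy3) and 0.38 and 0.35 in the less-loss pool. The 4 arrays lay above the control and the pairs of arrays did not overlap, with 1.57-fold of the control in the first pool and 1.29-fold in the second. The mean was 0.51 ± 0.21 (SD, n = 2) with a limma adjusted p of 0.508. On its own 2 arrays, the greater-loss pool passed the criteria for 2 of the 12 member probes, Saa3 and Hamp, where 0.297% of all probes were called higher and 0.395% lower. The less-loss pool passed them for Lcn2 alone of the members, where 0.234% of all probes were higher and 0.366% lower. The Saa1 probes gave the opposite order of the pools to the Saa3 probe. The annotation of the Saa3 probe also lists transcripts of Saa1, and hybridisation of Saa1 RNA to it was not tested.

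Probe sequences are printed for Lcn2, Saa3 and Saa1, without settling which transcripts each probe reads. They are given 5′ to 3′ with their positions on mm9, and the Lcn2 probe spans 245 genomic bases for 60 letters because it crosses an intron.
Lcn2 probe (chr2:32241037-32241281, minus strand): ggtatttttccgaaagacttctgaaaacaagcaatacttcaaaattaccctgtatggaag
Saa3 probe (chr7:53968031-53968090, minus strand): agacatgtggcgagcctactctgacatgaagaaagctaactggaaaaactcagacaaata
Saa1 probe (chr7:53996070-53996129, minus strand): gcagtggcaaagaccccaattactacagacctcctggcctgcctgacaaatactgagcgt

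Hamp encodes hepcidin, the hormone that lowers iron export by ferroportin, and it responds both to interleukin 6 through STAT3 and to iron through BMP and SMAD signalling. Its log2 ratios were 0.91 with GALP in Cy5 and 0.58 with GALP in Cy3 in the greater-loss pool, the highest of all members there at 1.68-fold. With less weight loss they were 0.36 and -0.0044, so the arrays of that pool did not share a direction. The array with GALP in Cy5 was the higher of each pair, by 0.32 and 0.36, and the component that followed the dye was 0.17. The pools differed by 0.57, and 2.26% of the 14445 detected probes had a difference between pools as large. The mean was 0.46 ± 0.40 (SD, n = 2) with a limma adjusted p of 0.702.

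Hamp2, the second hepcidin gene of the mouse and no member, was set beside it because the genes are near copies. Its log2 ratios were 0.99 and 0.52 in the greater-loss pool and 1.05 and 0.44 in the less-loss pool. Hamp2 was above the control on all 4 arrays with the same dye order as Hamp, and both of its pool means were 0.75. The probes agree at 42 of 59 bases in their best register without gaps, or 71.2%, and the capitals below mark those shared bases. Some hybridisation of each RNA to the other probe was not tested.
Hamp probe (chr7:31727490-31727549, minus strand): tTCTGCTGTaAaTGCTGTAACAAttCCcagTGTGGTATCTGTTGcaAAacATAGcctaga
Hamp2 probe (chr7:31707520-31707579, minus strand): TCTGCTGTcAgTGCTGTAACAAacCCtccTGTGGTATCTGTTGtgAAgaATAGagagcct

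**Figure D2:**
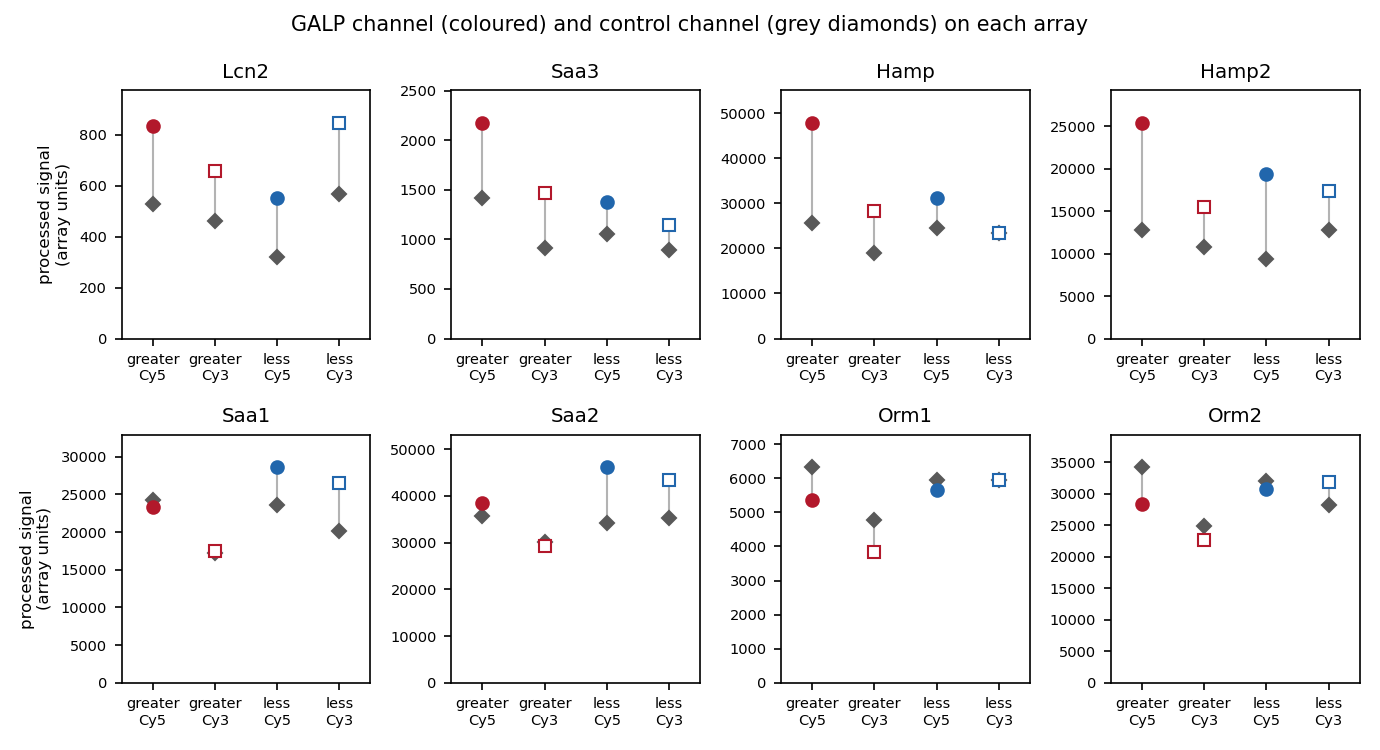
Processed signal of the GALP channel (coloured, circles for Cy5 and squares for Cy3) and of the control channel (grey diamonds) on each array, in array units from 0, for the brightest probe of 8 genes. The coloured symbol stands above the diamond on all 4 arrays for Lcn2, Saa3 and Hamp2, and for Saa1 and Saa2 the clear separation lies on the arrays of the less-loss pool.

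Saa1 and Saa2 encode the circulating serum amyloid A proteins of high-density lipoprotein, among the strongest acute-phase reactants of mouse liver. The brighter Saa1 probe gave -0.06 and 0.02 in the greater-loss pool, and 0.28 and 0.39 in the less-loss pool. The dimmer Saa1 probe gave 0.0023 and 0.0094, then 0.27 and 0.37. For Saa2 the log2 ratios were 0.11 and -0.04, then 0.43 and 0.30. All 3 probes were close to the control in the first pool and above it on both arrays of the second, with no overlap between the pairs of arrays. The greater-loss pool was lower than the other by 0.35, 0.31 and 0.33, in the order of the probes above. Those differences exceeded the gap between the arrays of either pool, which was at most 0.15, but each rests on 1 pool against 1 pool and has no test. Among the 14445 detected probes, 7.50% to 10.1% had a difference between pools at least as large. The limma adjusted p-values against the control were 0.715, 0.702 and 0.702. Saa4, the constitutive gene of the family, is outside the 10 genes and was named after its values were seen. Its brighter probe gave -0.04 in the greater-loss pool and 0.39 in the less-loss pool, and its dimmer probe 0.22 and 0.49.

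Saa1 and Saa2 had like ratios in both pools. The Saa2 probe is listed with an Ensembl transcript and without a RefSeq gene. Hybridisation of either RNA to the probes of the other gene was not tested. The promoters of Saa1 and Saa2 are close copies, and a part of this in their ratios was not tested either. In RefSeq on GRCm38.p6 the genes are transcribed away from each other with 8853 bases between their starts, and the 250 bases before the starts were identical at 238 positions, or 95.2%, in a global alignment. Saa1 and Saa3 shared 52.0% in the same comparison. The promoters of Saa1, Saa2 and, for contrast, Hamp are printed without the bases after the start, in the direction of the gene. Capitals mark matches on either strand to the letters TTNNGNAA (a C/EBP pattern), TTCNNNGAA (a STAT pattern) and GGCGCC (a BMP-responsive pattern).
Saa1 promoter (chr7:46742981-46743230, minus strand): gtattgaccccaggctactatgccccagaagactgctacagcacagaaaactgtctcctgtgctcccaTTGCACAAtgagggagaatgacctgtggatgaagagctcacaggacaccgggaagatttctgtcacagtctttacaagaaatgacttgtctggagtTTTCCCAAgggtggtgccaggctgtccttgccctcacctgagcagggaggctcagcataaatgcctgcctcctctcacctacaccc
Saa2 promoter (chr7:46751583-46751832, plus strand): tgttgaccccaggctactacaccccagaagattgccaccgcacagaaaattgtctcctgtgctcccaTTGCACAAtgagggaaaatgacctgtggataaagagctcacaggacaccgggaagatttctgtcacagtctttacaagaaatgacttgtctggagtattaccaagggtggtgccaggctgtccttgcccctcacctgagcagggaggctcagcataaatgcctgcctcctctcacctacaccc
Hamp promoter (chr7:30944030-30944279, minus strand): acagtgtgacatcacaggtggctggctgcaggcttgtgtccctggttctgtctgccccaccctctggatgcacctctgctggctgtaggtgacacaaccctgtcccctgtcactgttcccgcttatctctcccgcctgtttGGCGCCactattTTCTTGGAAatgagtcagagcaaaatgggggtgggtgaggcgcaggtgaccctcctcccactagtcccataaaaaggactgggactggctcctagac

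Promoters of 8 of the 10 members were at hand, without those of Orm1 and Hp. The C/EBP pattern stood in 6 of these 8 (Saa1, Saa2, Saa3, Orm2, Lcn2 and Hpx), against 36.8% of 32851 promoters of the same length. The STAT pattern stood in the other two, Hamp and Socs3, against 7.02% of all promoters, and GGCGCC in the same pair against 9.59%. The NF-κB consensus was in none of the 8, with 5.0% of all promoters holding it. None of these matches overlapped another kind of pattern in Hamp, where GGCGCC began 109 bases and the STAT pattern 97 bases before the start. A match in a window of this length is a description of letters only.

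Orm1 and Orm2 encode orosomucoid, the plasma glycoprotein that carries basic drugs and lipids. Orm1 gave -0.24 and -0.31 in the greater-loss pool and -0.07 and -0.00029 in the less-loss pool, so all 4 arrays were at or below the control. Orm2 gave -0.27 and -0.14, then -0.06 and 0.17. Both genes were lower in the greater-loss pool than in the other, by 0.24 for Orm1 and 0.26 for Orm2. The mean of Orm1 was -0.15 ± 0.17 (SD, n = 2) and that of Orm2 was -0.07 ± 0.18 (SD, n = 2), and neither exceeded the spread between pools. The third gene of the family, Orm3, gave 0.16 and -0.52 in the greater-loss pool but 1.21 and 0.63 in the less-loss pool. It was dim and uneven, with signals of 121 to 490 units for the shared control pool across the arrays. Its limma adjusted p was 0.817.

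Hp encodes haptoglobin, which binds free haemoglobin, and Hpx encodes haemopexin, which binds free haem. Hp was above the control on all 4 arrays, at 0.27 and 0.11 in the greater-loss pool and 0.15 and 0.21 in the less-loss pool. Its pool means, 0.19 and 0.18, agreed more closely than the arrays of either pool, so its limma interval from 0.13 to 0.24 reflects that near equality and its adjusted p was 0.374. Hpx gave 0.28 and 0.26, then -0.06 and 0.20. Its GALP signals of 111368 to 138802 units were below saturation, as were all spots of the arrays.

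The probes of Socs3 had like means, -0.07 for each, but differed on single arrays. The one listed with its RefSeq transcript gave -0.10 and -0.15 in the greater-loss pool and 0.00062 and -0.02 in the less-loss pool. The other is brighter, is listed with a cDNA entry of another name and lies on the strand opposite to the gene, so the transcript it reads is not settled. It gave 0.16 and -0.24, then 0.07 and -0.28, with its sign set by the dye on every array and a dye component of 0.19. Neither Socs3 probe reached a p-value under 0.01 on any array.

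**Figure D3:**
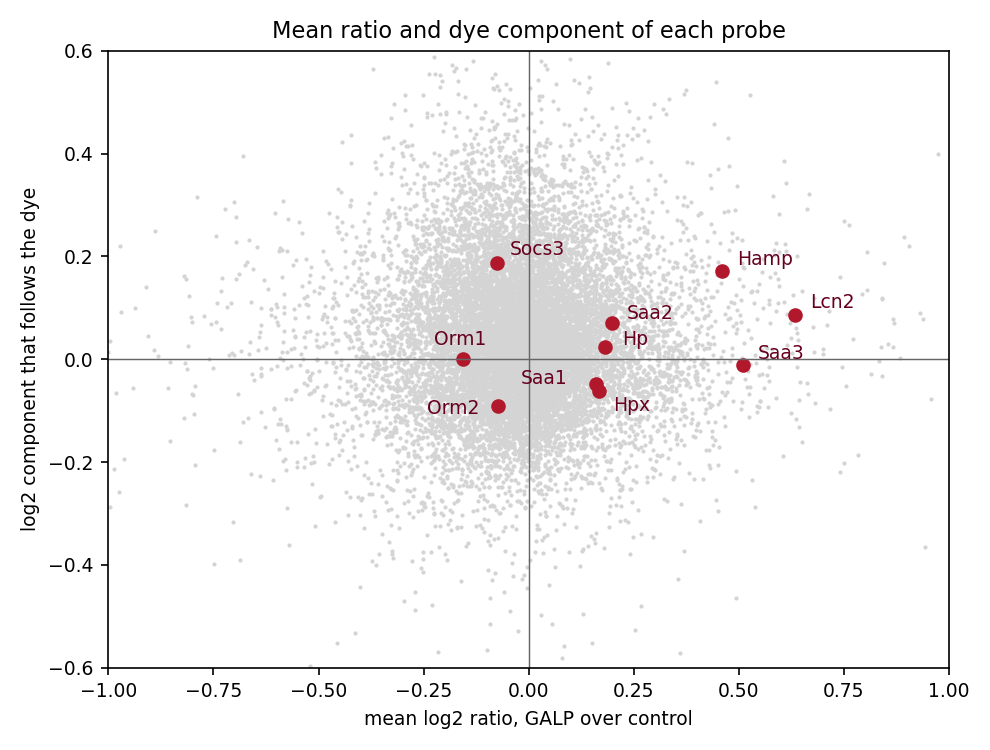
Mean log2 ratio of GALP over control (x axis) against the log2 component that follows the dye (y axis, the mean difference between arrays with GALP in Cy5 and in Cy3, divided by 2) for the 14445 detected probes (grey, 98 outside the axes) and the brightest probe of each member (red). Saa3 and Orm1 lie near 0 on the y axis, whereas Hamp (0.17) and Socs3 (0.19) lie highest among the members.

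Across the members, 4 of the 12 probes were above the control on all 4 arrays (Saa3, Lcn2, Hp and the dimmer Saa1 probe), against 11.8% of the detected probes, and 1 was below it on all 4 (Orm1), against 16.0%. The dimmer Saa1 probe was counted through ratios of 0.0023 and 0.0094 in the greater-loss pool. By gene, 3 of the 10 brightest probes were above the control on all 4 arrays and 1 was below. With the brightest probe of each gene, the median log2 ratio of the 10 genes was 0.11 in the greater-loss pool and 0.18 in the less-loss pool, beside -0.02 and -0.03 over the detected probes. The arrays of the pools did not overlap for 9 of the 12 probes. The greater-loss pool was the higher for 3 of them (Saa3, Hpx and Hamp), where 13.7% of the detected probes behaved so, and the lower for 6 (both Saa1 probes, Saa2, Orm1, Orm2 and the dimmer Socs3 probe), against 11.7%. For 8 of the 12 probes the difference between pools was larger than the gap between the arrays of either pool, against 16.6% of the detected probes. Hamp, Saa3 and Hpx were higher in the greater-loss pool, by 0.57, 0.29 and 0.20, of which that of Hpx was under its array gap of 0.26. Over the detected probes the median difference between pools was 0.10 and the median gap between the arrays of a pool was 0.20.

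**Figure D4:**
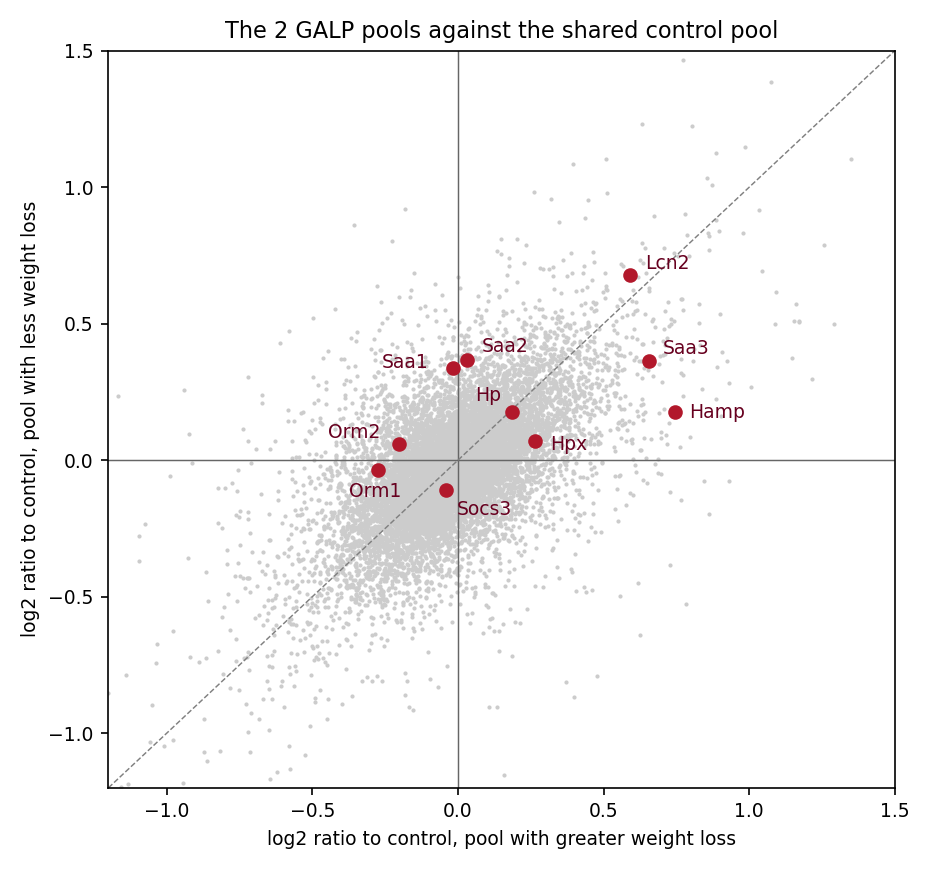
Log2 ratio to the control in the greater-loss pool (x axis) and in the less-loss pool (y axis), each the mean of 2 arrays, for the 14445 detected probes (grey, 75 outside the axes) and the brightest probe of each member (red); the dashed line marks equal ratios. Both ratios share the control pool. Lcn2 lies near the line, Hamp and Saa3 to its right, and Saa1, Saa2, Orm1 and Orm2 to its left.

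Other positive acute-phase proteins gave mixed values. All 20 genes of that list were on the array and 18 were detected in both channels throughout, with a median log2 ratio of 0.06 in the greater-loss pool and 0.21 in the less-loss pool. Of these 18, 8 were above the control on all 4 arrays and 3 below, and the rule of the methods called none. Il1rn, the interleukin 1 receptor antagonist, gave 0.57 and 0.45, then 0.89 and 1.07, and its p-value was under 0.01 on 3 arrays. C3, the central complement component, gave 0.28 and 0.32, then 0.21 and 0.23. The fibrinogen chain Fgb gave -0.15 and -0.17, then -0.13 and -0.10, on the other side of the control. C3 and Fgb were named after their values were seen. Among 9 negative acute-phase proteins, which fall in inflammation, the median was 0.05, with 2 above and 1 below the control on all 4 arrays and none called. Serpina6, the corticosteroid-binding globulin, had the largest value of that list at 0.36 ± 0.0046 (SD, n = 2), followed by Ahsg (fetuin A) at 0.20 ± 0.16 (SD, n = 2) and Trf (transferrin) at 0.11 ± 0.19 (SD, n = 2). On single arrays Serpina6 gave 0.35 and 0.36, then 0.31 and 0.41.

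The upstream signals were measured unevenly. Il6, Osm, Il11 and Il22, the ligands, were not well above background in any channel, nor were the receptor genes Il22ra1, Il1r2 and Tlr4 or the ligand gene Tnf. Of 13 detected genes of the interleukin 6 and JAK-STAT list, 5 were above the control on all 4 arrays and 1 below, with none called. Il6ra, the interleukin 6 receptor, gave 0.91 and 0.51, then 0.59 and 0.37, and Il6st (gp130) gave 0.29 and 0.25, then 0.17 and 0.38. Osmr, the oncostatin M receptor, averaged 0.36 ± 0.08 (SD, n = 2), Socs2, another inhibitor of cytokine signalling, 0.32 ± 0.29 (SD, n = 2), and Stat3 -0.03 ± 0.14 (SD, n = 2). In the interleukin 1, tumour necrosis factor and NF-κB list, 4 of 18 detected genes were above and 2 below the control on all 4 arrays, with none called. Il1r1, the interleukin 1 receptor, averaged 0.43 ± 0.09 (SD, n = 2), the chemokine gene Ccl2 0.45 ± 0.37 (SD, n = 2), Il1b -0.48 ± 0.40 (SD, n = 2) and the feedback inhibitor Nfkbia -0.04 ± 0.04 (SD, n = 2). Among the transcription factors of these genes, 3 of 6 detected were above the control on all 4 arrays. Cebpd gave 0.15 and 0.19, then 0.29 and 0.37, while Cebpb averaged 0.09 ± 0.04 (SD, n = 2) and Hnf4a 0.16 ± 0.09 (SD, n = 2).

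Genes that set hepcidin or handle iron and haem had a median of -0.01 over 17 detected genes, with 1 above the control on all 4 arrays and none below. Id1, a target of BMP signalling, gave 0.70 and 0.66 in the greater-loss pool and 0.15 and -0.17 in the other. Bmp6, the iron-responsive ligand, was named after its values were seen and gave 0.35 and 0.12, then 0.10 and -0.39. Other genes of the list, named likewise, took either order of the pools. Smad6 averaged 0.08 in the greater-loss and 0.18 in the less-loss pool, and Hjv -0.02 and -0.17. The part of these genes in the values of Hamp was not tested. Tfrc, the transferrin receptor, averaged -0.57 in the first pool and -0.04 in the second, and Lrp1, the receptor that clears haem bound to haemopexin, averaged 0.31 ± 0.08 (SD, n = 2). Of the glucocorticoid targets, Fkbp5, a co-chaperone of the glucocorticoid receptor, was the only gene of the 7 lists of proteins and pathways that the rule called. Its brightest probe gave 1.49 and 1.21, then 1.20 and 1.01, and was the only 1 of its 3 probes called. Dusp1, a phosphatase that limits MAP kinases, gave -0.63 and -0.60, then -0.35 and -0.55, and Tat, a liver enzyme of tyrosine breakdown, averaged -0.38 ± 0.26 (SD, n = 2). The median of the 6 detected genes of that list was -0.13, with 1 gene above and 3 below the control on all 4 arrays.

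**Figure D5:**
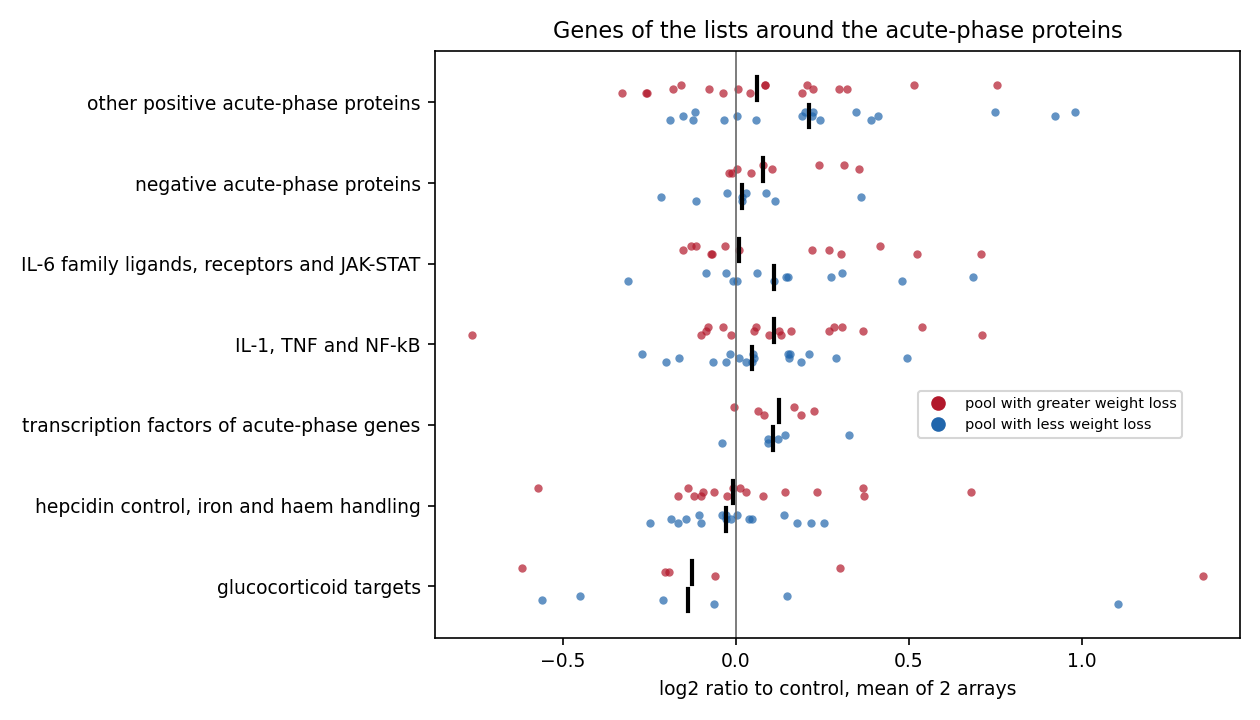
Log2 ratio to the control (x axis, mean of the 2 arrays of a pool) of the detected genes of 7 lists (y axis), by their brightest probe, in the greater-loss (red) and less-loss (blue) pool, with black bars at the medians. The medians lie between -0.14 and 0.21, and the point farthest right is Fkbp5 among the glucocorticoid targets.

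Several members are also made by cells other than hepatocytes, so cell markers are given beside them. All 8 hepatocyte markers on the array were well above background in both channels throughout, with a median log2 ratio of 0.03 and with Tat, Cps1 (0.17 ± 0.17, SD, n = 2) and Hnf4a farthest from 0. All 8 macrophage and Kupffer cell markers were detected, their summed signal was 25968 to 31770 units for GALP and 23125 to 25856 for the control, 4 were above the control on all 4 arrays and none below, and their median log2 ratio was 0.21. Marco, a scavenger receptor of Kupffer cells, was called higher at 1.07 and 1.02, then 0.81 and 0.58, and Cd68 averaged 0.55 ± 0.17 (SD, n = 2) and Adgre1 0.43 ± 0.01 (SD, n = 2). On single arrays Adgre1 gave 0.55 and 0.29, then 0.48 and 0.39. The Kupffer cell markers Timd4, Vsig4 and Clec4f, named after their values were seen, averaged -0.27, -0.25 and -0.12 in the greater-loss pool and -0.05, 0.12 and 0.11 in the less-loss pool. Cd5l and Csf1r of the same list, named likewise, averaged 0.13 and 0.21 in the greater-loss pool and 0.16 and 0.34 in the less-loss pool. Of 9 neutrophil markers on the array, Elane, Camp, Ngp, Retnlg and Cxcr2 were well above background in no channel, the summed signal was 1690 to 1888 for GALP and 1450 to 1840 for the control, and S100a8 averaged 0.58 in the greater-loss pool and -0.17 in the less-loss pool, with S100a9 at 0.20 and 0.0046. Of the 8 adipocyte markers, Lep and Retn were at background, 4 were detected in both channels throughout, 2 of them above and 1 below the control on all 4 arrays. Their summed signal, 19684 to 23015 for GALP and 11853 to 16954 for the control, came mostly from Cidec, a lipid droplet gene, which averaged 0.75 ± 0.01 (SD, n = 2). On single arrays Cidec gave 0.57 and 0.92, then 0.53 and 0.99. Cfd (adipsin) had the largest absolute mean of that list at -0.81 ± 0.11 (SD, n = 2), with a p-value under 0.01 on 3 arrays, Fabp4 averaged 0.35 ± 0.10 (SD, n = 2), and Adipoq, named after its values were seen, gave 0.38 in the greater-loss and -0.26 in the less-loss pool. The 4 detected stellate cell markers had a median of 0.19, led by Col1a1 at 0.66 ± 0.23 (SD, n = 2), with Reln at 0.19 and Acta2 at 0.18, and the 3 detected erythroid markers were below the control on all 4 arrays with means of -0.10 (Hba-a1), -0.15 (Alas2) and -0.56 (Slc4a1). Over the 3 detected bile duct markers the median was -0.10, with Krt19 at -0.46, Krt7 at -0.10 and Spp1 at 0.10. Of 12 stomach and intestine markers, Gkn2 and Tff1 were called lower. Gkn2 was well above background in the control channel of all 4 arrays and in no GALP channel, and Tff1 in the control channel of all 4 and 1 GALP channel. Tff2 averaged -3.79 in the greater-loss pool and 0.68 in the less-loss pool, Gkn3 -3.19 and 0.70, and Lyz1 0.62 and 0.04. The part of these markers in the values of Lcn2, Saa3 and the other members was not tested.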

How the data were processed

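Liver RNA pools were compared on 4 two-colour arrays of 1 slide. Background subtraction and LOWESS dye normalization were done by the authors in Feature Extraction, version 12.0.3.1 in the scanner files and 11.0.1.1 in the submitters' processing notes. The deposited values used were the processed intensity of each channel, the log10 ratio of Cy5 over Cy3 and its p-value from the software's error model, which compares extracts on 1 array. An alternative was the series table, which already reads GALP over control and equals the log10 ratio of the processed intensities on 100% of spots. It differs from the software's log ratio, which was exactly 0 on 29.6% to 35.3% of the spots of an array. In log2 the array medians of the series table ran from -0.13 to 0.02, against 0 for the software's log ratio.

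All ratios were expressed as log2 of GALP over control. Outlier spots (232 to 319 of 43379 on an array) were left out, spots of a probe were averaged, and then the 2 arrays of a pool. Control channels carry a weight-loss label as well, but the study describes 1 control pool, whose own spread enters no test. Each SD given is that of the 2 pool means, so it leaves out the gap between the arrays of a pool. Probe coordinates are on mm9, promoters are from RefSeq on GRCm38.p6. The call rule is strict because the number of arrays on which its threshold holds is not stated. limma 3.58.1 in R 4.3.3 (lmFit, eBayes, Benjamini-Hochberg over 41037 probes) had 1 residual degree of freedom. Both procedures were tested on simulated data.

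The members and lists were chosen with earlier results of these data known. The brightest probe stood for a gene. Named from each list were genes with a called probe, Il6ra, Il6st, Stat3, Cebpb, Cebpd, Nfkbia and Fkbp5, and the 3 detected genes with the largest absolute mean. One gene that this names is not reported here. Alternatives covered background correction, centring, outlier marks, the p-value criterion, probes, arrays and pools. The number of arrays limits the precision.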

Additional observations from a re-analysis of the deposited data

How the results depend on the processing

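The strict rule called 0 member probes in either direction. It called 0 also after normexp with loess, after centring each array, on the series table and with outlier marks kept. One member probe (Lcn2) was called higher with the p-value asked on at least 1 array of each pool, when 53 of all probes were called higher and 167 lower, and 1 (Lcn2) with no p-value, when 154 were called higher and 360 lower. Leaving out 1 array or 1 pool gave 0 to 2 member probes called higher and 0 called lower, beside 27 to 40 higher and 65 to 70 lower of all probes without 1 array, and 96 to 122 higher and 150 to 162 lower without 1 pool. The single call was Lcn2 without the array of the greater-loss pool with GALP in Cy3, or without that pool, and the 2 calls were Saa3 and Hamp without the less-loss pool. Over all probes, limma called 0 in the reported fit, 0 with an intensity trend, 1 lower on the filtered probes, 39 higher and 67 lower on 4 arrays with the pool as a random block, and 52 higher and 66 lower after normexp and loess. The random-block fit estimated a correlation of -0.39 between the arrays of a pool. Its counts rest on the arrays, whereas the pools are the replicates. In these 5 fits limma called 0 member probes, with a smallest adjusted p of 0.0503 (Lcn2) after normexp and loess. There 9 member probes had an unadjusted limma p under 0.05, beside 1 to 3 in the other fits. Of all 41037 probes, 2283 were higher and 2603 lower at that unadjusted p after normexp and loess.

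Of 110 alternative values of the 10 gene means, 4 changed sign and 106 did not. Over the fits without 1 array or pool, Saa1 ranged from -0.017 (without the less-loss pool) to 0.34, Orm2 from -0.20 to 0.058 (without the greater-loss pool) and Socs3 from -0.17 to 0.025, being above 0 (0.025 and 0.013) without either array that carried GALP in Cy3. Over the same fits Lcn2 ranged from 0.58 to 0.69, Saa3 from 0.36 to 0.65 and Hamp from 0.18 to 0.75, while Lcn2 was 0.32 after normexp and loess. The cause was not tested. Each ratio already sets a GALP pool beside the control on 1 array. No further pairing was possible, since the mice were pooled and the control was 1 pool. The labels give no replicate numbers, and the 2 arrays of a pool are a dye swap of the same RNA. With 2 pools, 1 control pool and pooled animals, differences between mice cannot be measured.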
